A study of Catharanthus roseus with 3 samples.

Results

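ZCT1 (Cr_TC38533), ZCT2 (Cr_TC12396) and WRKY1 (Cr_TC35814) are 3 regulators of terpenoid indole alkaloid (TIA) synthesis in the Madagascar periwinkle, Catharanthus roseus. They were taken by transcript identifier from 59220 assembled transcripts, and all 3 were found in every file. RNA had been sequenced from leaf, root and flower of mature field-grown plants of the variety Prabal, a variety known for high alkaloid content, with 1 library per tissue and no treatment. The tissues share variety, growth and RNA extraction, and how many plants went into a library is not given in the sources used here. The comparisons ask in which organs regulators of the pathway are transcribed. With 1 library per tissue there was no spread between replicates, and no test was run.

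ZCT1 and ZCT2 are TFIIIA-type zinc finger proteins that bind the promoters of tryptophan decarboxylase (TDC) and strictosidine synthase (STR) genes and repress them, opposing the ORCA activators. Both respond to jasmonate and to yeast extract. WRKY1 belongs to the WRKY family, which reads W-box DNA elements. In hairy roots that overexpress it, transcripts of TDC and of the ZCT repressors are raised, whereas those of ORCA2, ORCA3 and MYC2 are lowered.

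The values, headed as base means, were taken from their size as RPKM, read number scaled to transcript length and library size, and if so levels of different transcripts can be set side by side. They carried 2 decimals and summed to between 452743 and 471970 per library, and the number of reads behind a value is unknown, since transcript lengths were not used here. Differences are given as ratios of RPKM, or as log2 ratios of (RPKM + 1), which understate the difference of low transcripts. Transcripts were counted as apart at a log2 ratio of at least 1 (2-fold) with the larger value at 10 RPKM or more. Among known tissue-restricted enzymes, tabersonine 16-hydroxylase (T16H) of the aerial vindoline branch stood at 0.04 RPKM in the library labelled root. In leaf it had 7.01 RPKM and in flower 17.3. The vindoline enzymes DAT, D4H, 16OMT and NMT were also lowest in root, but at 0.37, 2.39, 3.44 and 6.29 RPKM. D4H in root was within 2-fold of its flower value, 3.45 RPKM. Tabersonine 19-hydroxylase (T19H), an enzyme of root, had 8.96 RPKM in root, 0.01 in leaf and was listed at 0 in flower. When libraries were rescaled by their median ratio to a mean library, log2 ratios of plain RPKM moved by -0.12 for leaf against flower. They moved by 0.23 for root against flower and by -0.35 between leaf and root. Log2 ratios of (RPKM + 1) do not all move by the same amount.

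Root held the highest level of both zinc finger genes, and leaf the lowest. For ZCT1, root gave 229 RPKM, flower 25.1 and leaf 4.04. It ranked 238 of 59220 transcripts in root, 4272 in flower and 15400 in leaf. Root thus carried 88.7% of the summed RPKM of the 3 tissues for ZCT1, flower 9.74% and leaf 1.56%; 3.95% of the 13867 transcripts of 10 RPKM or more in some tissue had as large a root share. In ZCT2, the weaker of the pair, the values were 21.0 RPKM in root, 2.49 in flower and 0.2 in leaf, at ranks of 4671, 18316 and 37972. The root share of ZCT2 was 88.6%, almost that of ZCT1 (3.99% had as large a share). In leaf, 14.5% of the transcripts detected there lay under ZCT2, whose value there is coarse beside the step of 0.01 in which the files are written.

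WRKY1 was distributed differently. Leaf gave 27.5 RPKM, root 19.3 and flower 2.1, at ranks of 3877, 5059 and 19422. Leaf carried 56.2% of its summed RPKM, root 39.5% and flower 4.30%, and 16.8% of the same 13867 transcripts had as large a leaf share. Leaf and root, the neighbours at the top of this order, were 1.42-fold apart, which is within the 2-fold line, while flower stood 9.19-fold under root.

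**Figure D1:**
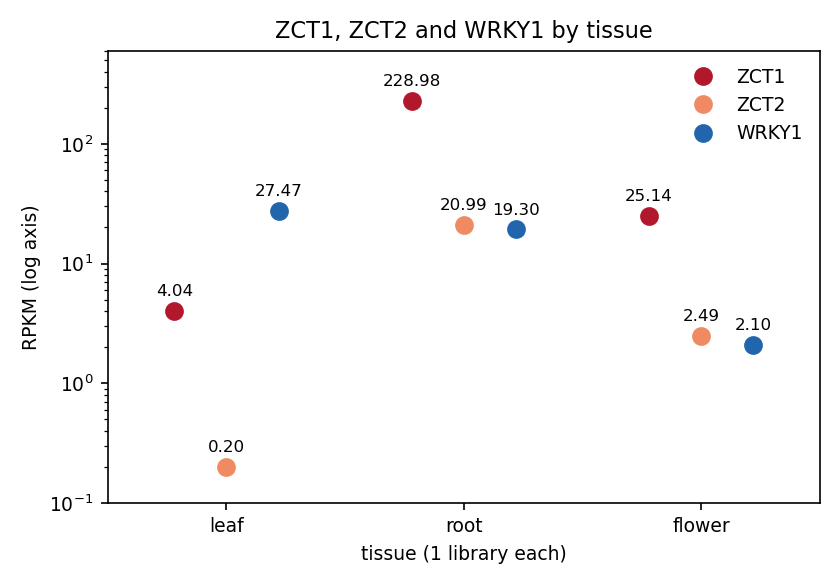
RPKM (log axis) of ZCT1, ZCT2 and WRKY1 in leaf, root and flower, each point being the value of 1 library, so that no error bar can be drawn. Both zinc finger genes are highest in root (229 and 21.0 RPKM) and lowest in leaf (4.04 and 0.2), whereas WRKY1 is highest in leaf (27.5) and lowest in flower (2.1).

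Between root and flower, the 3 regulators differed by nearly the same factor. Root exceeded flower 9.11-fold for ZCT1, 8.43-fold for ZCT2 and 9.19-fold for WRKY1, a spread of 1.09-fold between the lowest and the highest of these ratios. On the log2(RPKM + 1) scale the differences were 3.14, 2.66 and 2.71. All 3 were therefore at least 2-fold higher in root by the rule of size, as were 20.8% of the 11639 transcripts compared (44.4% were apart in either direction). Of these transcripts, 5.35% stood further above flower than ZCT1, 7.39% further than WRKY1 and 7.64% further than ZCT2. Of the 11518 transcripts compared that were above 0 in both tissues, 48 (0.417%) had a ratio between those of ZCT2 and WRKY1. This range was drawn after the values had been seen, and it describes how closely the 3 ratios lie together.

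As a result, the make-up of the 3 regulators was alike in root and flower although their summed level was 269 RPKM in root and 29.7 in flower. ZCT1 made up 85.0% of the sum in root and 84.6% in flower, ZCT2 7.80% and 8.38%, and WRKY1 7.17% and 7.06%. ZCT1 exceeded WRKY1 11.9-fold in root and 12.0-fold in flower. ZCT1 exceeded ZCT2 10.9-fold and 10.1-fold, respectively, and WRKY1 and ZCT2 were within 1.19-fold of each other in both tissues. These proportions are taken within a library and do not depend on how libraries are scaled.

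Leaf broke this proportion. The summed level in leaf, 31.7 RPKM, was close to that in flower, but WRKY1 made up 86.6% of it, ZCT1 12.7% and ZCT2 0.631%. WRKY1 exceeded ZCT1 6.80-fold in leaf, the reverse of the order in the other tissues, and it exceeded ZCT2 137-fold (134 to 141-fold allowing for the rounding of the values). The zinc finger pair was itself further apart in leaf, where ZCT1 exceeded ZCT2 20.2-fold (19.7 to 20.7-fold allowing for rounding). Such ranges, here and below, cover rounding alone. They leave out the counting of reads and the spread between plants.

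**Figure D2:**
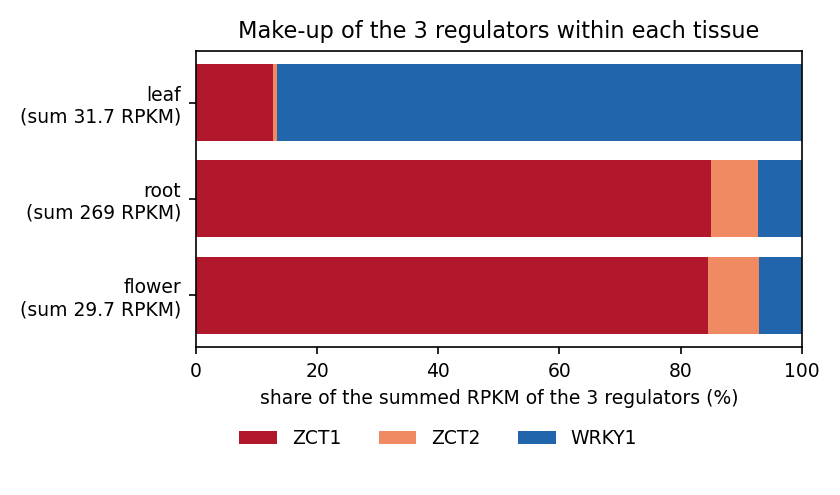
Share (%) of ZCT1, ZCT2 and WRKY1 in the summed RPKM of the 3 regulators within leaf, root and flower, 1 library each, with the sum beside each bar. Root and flower show nearly the same make-up, with ZCT1 at 85.0% and 84.6%, while WRKY1 takes 86.6% in leaf.

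Against flower, leaf was lower for the zinc finger genes and higher for WRKY1. ZCT1 was 6.22-fold lower in leaf (log2 ratio -2.37), and of the 12310 transcripts compared 9.58% lay lower still. WRKY1 was 13.1-fold higher in leaf (log2 ratio 3.20), and 2.75% of the transcripts compared lay higher. These 2 members passed the rule of size, which 42.4% of the transcripts compared did, 21.5% being higher in leaf and 20.9% higher in flower. ZCT2 stayed under 10 RPKM in both tissues and was not counted by that rule. It was 12.45-fold lower in leaf (12.1 to 12.8-fold allowing for rounding), with a log2 ratio of -1.54, and with a pseudocount of 10 the log2 ratio was -0.29, since a value under 10 RPKM cannot then reach 2-fold. With no minimum value, 11.3% of the 47690 transcripts above 0 in leaf or flower were at least 2-fold higher in flower.

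The widest gaps were those between leaf and root in the zinc finger genes. Root exceeded leaf 56.7-fold for ZCT1 and 105-fold for ZCT2 (102 to 108-fold allowing for rounding), with log2 ratios of leaf against root of -5.51 and -4.20. Of 12517 transcripts compared, 0.919% lay further towards root than ZCT1 and 3.71% further than ZCT2. The ratio of RPKM was larger in ZCT2 and the log2 ratio of (RPKM + 1) larger in ZCT1, because the pseudocount outweighs the leaf value of ZCT2. WRKY1 lay on the other side at a log2 ratio of 0.49. It was within 2-fold, and 0.15 to 0.55 over the alternative pseudocounts and scalings. By the rule of size 2 of the 3 regulators were thus higher in root, as were 24.8% of the transcripts compared (54.5% were apart in either direction).

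**Figure D3:**
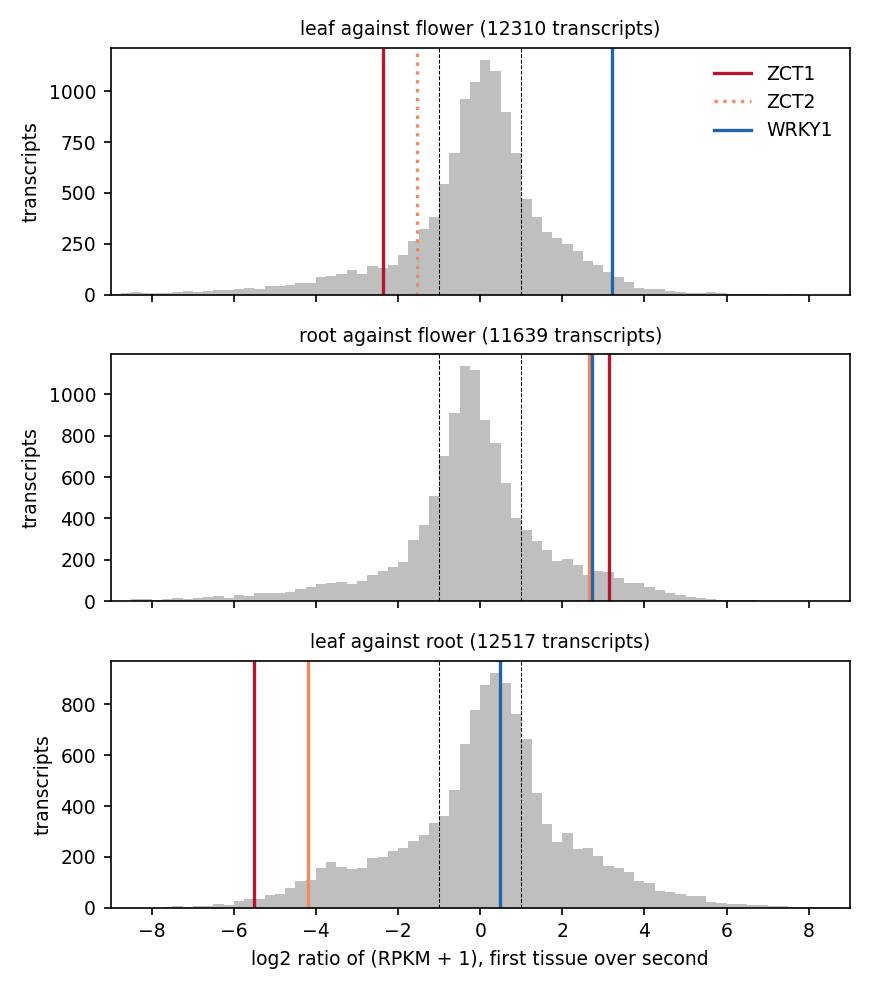
Number of transcripts by log2 ratio of (RPKM + 1) in bins of 0.25 in each pair of tissues (larger value at least 10 RPKM), with the 2-fold lines dashed and the members as coloured lines. A few transcripts with the most extreme ratios lie beyond the edges and are not drawn. A dotted line marks ZCT2 in leaf against flower, where it stayed under 10 RPKM; the 3 members stand together only for root against flower, at 2.66 to 3.14.

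Over the tissues together, 13867 transcripts reached 10 RPKM somewhere, and 19.6% of them had the order of ZCT1 and ZCT2, root above flower above leaf. Steps of at least 2-fold at both places were shown by 4.56%, among them both zinc finger genes. The step of ZCT2 from flower to leaf lies between values under 10 RPKM. Its log2 ratio of leaf against flower was -0.29 with a pseudocount of 10. Steps and ratios here are of (RPKM + 1), a scale on which the low leaf value of ZCT2 counts for less. A root to flower ratio as high as that of ZCT1 joined to a leaf to flower ratio as low was found in 11 transcripts (0.0793%). ZCT1 is included, and for ZCT2 the number was 82 (0.591%). The order of WRKY1, leaf above root above flower, was that of 10.4%. At least 2-fold above flower in both leaf and root were 2.96%, or 1.46% with leaf and root within 2-fold of each other as in WRKY1, and 22 transcripts (0.159%), WRKY1 included, matched or passed WRKY1 in both of its ratios to flower. These comparisons share the flower library, and so a low flower value raises both ratios. The 11, 82 and 22 transcripts were counted at each member's own ratios, in the direction of its own values. These counts describe where a member lies and do not test whether its pattern is rare.

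**Figure D4:**
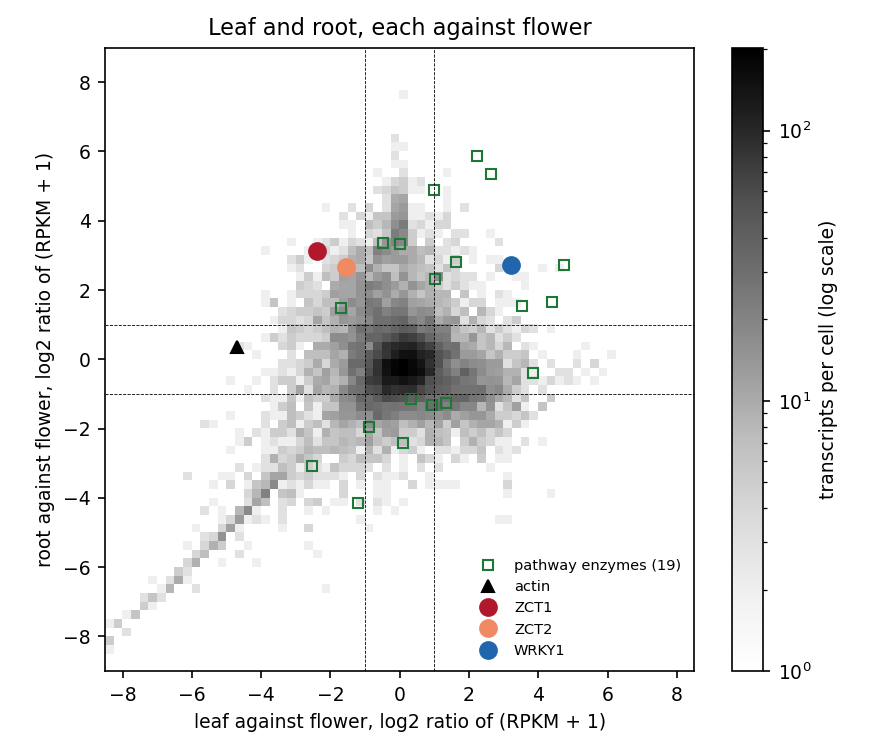
Log2 ratio of (RPKM + 1) of leaf against flower (horizontal) and root against flower (vertical) for the 13867 transcripts reaching 10 RPKM somewhere (grey, transcripts per cell), with the 3 regulators, 19 pathway enzymes and actin as symbols and the 2-fold lines dashed. Transcripts with the lowest leaf against flower ratios lie beyond the left edge and are not drawn. ZCT1 and ZCT2 lie at the upper left (leaf -2.37 and -1.54, root 3.14 and 2.66) and WRKY1 at the upper right (3.20 and 2.71).

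Transcripts of TDC and strictosidine synthase did not share one order of tissues. Which of them the regulators act on in these organs was not tested. TDC (Cr_TC33880), which makes tryptamine, stood at 191 RPKM in root, at 14.5 in leaf and at 2.29 in flower. It was thus highest in root with ZCT1 and ZCT2, but lowest in flower with WRKY1. STR1 (Cr_TC04185) was highest in flower (34.8 RPKM), followed by leaf (18.4) and root (8.31), and STR2 (Cr_TC05794) was highest in root (90.8), followed by leaf (36.3) and flower (17.5). All of these orders were kept under the 3 other scalings of the libraries.

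Set against TDC within a tissue, ZCT1 stood at 11.0 times the TDC level in flower, 1.20 times in root and 0.279 times in leaf. WRKY1 was at 1.89 times the TDC level in leaf, 0.917 in flower and 0.101 in root. ZCT2 was level with TDC in flower, at 1.09 times, and was at 0.110 times in root and 0.0138 times in leaf. Against STR1, ZCT1 stood highest in root, at 27.6 times, and was at 0.722 times in flower and 0.220 times in leaf. Against STR2 it was at 2.52 times in root, 1.43 in flower and 0.111 in leaf. Leaf thus had the lowest ratio of ZCT1 to each of these 3 genes.

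Among the 19 TIA enzymes whose identifiers were at hand, 8 were highest in root, 8 in leaf and 3 in flower, where 29.6%, 40.9% and 29.5% of the 13867 transcripts were. Highest in root, as were the zinc finger genes, were TDC and anthranilate synthase (ASA) of the indole branch, the geranyl diphosphate synthase subunit GPPS, LAMT and SLS, which complete secologanin, the P450 reductase CPR, STR2 and T19H. Of these, GPPS and CPR alone had the whole order of ZCT1 and ZCT2, which is 2 of the 19 where 19.6% of the 13867 transcripts had that order. GPPS stood at 205 RPKM in root, at 19.3 in flower and at 13.5 in leaf. Highest in leaf, as was WRKY1, were HDR of the MEP pathway, the early iridoid enzymes G10H and IS, SGD and the vindoline enzymes 16OMT, NMT, D4H and DAT, of which G10H, IS and SGD had its whole order, 3 of the 19 where 10.4% had it. SGD, the glucosidase acting on strictosidine, stood at 139.8 RPKM in leaf, at 33.8 in root and at 4.25 in flower.

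By the rule of size, 8 of the 14 enzymes compared were higher in root than in flower and 6 were lower, where 20.8% and 23.6% of all transcripts compared were; with a pseudocount of 10 the numbers were 8 and 4. In leaf, 9 of 16 were higher than in flower and 3 lower, where 21.5% and 20.9% were. Between leaf and root, 8 of 16 were higher in leaf and 7 in root, where 29.8% and 24.8% were. The median log2 ratio of the enzymes compared was 1.89 for root against flower, 1.17 for leaf against flower and 0.81 between leaf and root, beside -0.18, 0.07 and 0.26 over all transcripts compared. The enzymes left out of one or more of these counts, under 10 RPKM in both tissues, were G10H, IS, D4H, LAMT, T16H, DAT and T19H. With no minimum value and all 19 counted, 11 stood higher in root and 7 in flower, 9 higher in leaf and 3 in flower, and 10 higher in leaf and 8 in root, in the respective pairs. The shares of all transcripts above 0 in either tissue were then 17.3% and 11.8%, 10.7% and 11.3%, and 15.2% and 20.1%. Most of those transcripts stayed under 10 RPKM, so that these shares are not matched to the levels of the enzymes. These enzymes were taken with earlier results of the same libraries known.

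ZCT1 lay near the upper end of the pathway enzymes in root and near their lower end in leaf. In root 18 of the 19 enzymes lay under ZCT1, SLS at 577 RPKM being the exception, and in flower 15 lay under it. In leaf 2 lay under it, LAMT and T19H. ZCT2 was above 9 enzymes in root, 5 in flower and 1 in leaf, T19H. WRKY1 held a middle place in leaf and root, above 9 of the 19 in each, and was above 2 in flower, LAMT and T19H. The median of the enzymes was 31.2 RPKM in leaf, 30.8 RPKM in root and 10.1 RPKM in flower.

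**Figure D5:**
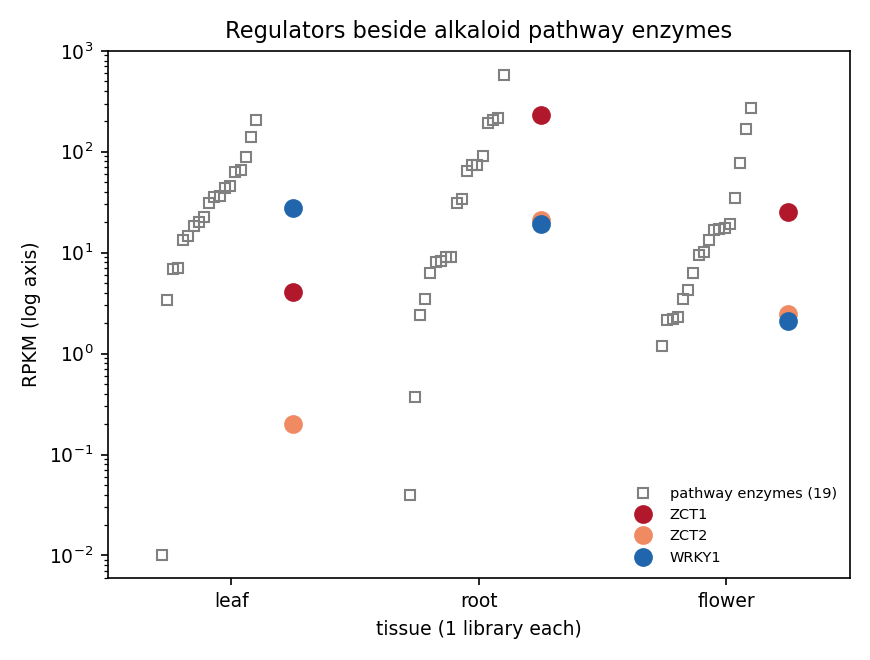
RPKM (log axis) of the 3 regulators (filled) beside 19 pathway enzymes (open squares, in ascending order) in leaf, root and flower, 1 library each; T19H, listed at 0 in flower, is not drawn there. ZCT1 lies above 18 enzymes in root, 15 in flower and 2 in leaf, and WRKY1 above 9, 2 and 9 in root, flower and leaf.

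Transcripts with the most similar levels were sought by Euclidean distance of log2(RPKM + 1) over the 3 tissues, and the files give none of them a gene name. Nearest to WRKY1 was Cr_TC03070 (leaf 28.9 RPKM, root 20.6 and flower 1.86; distance 0.16), followed by Cr_TC57341 (0.48). These 2 were the only transcripts within a distance of 0.5 of WRKY1. Nearest to ZCT2 were Cr_TC43488 (leaf 0.16 RPKM, root 18.9 and flower 2.54; distance 0.15), and Cr_TC01535 (0.28), among 18 transcripts within 0.5. Nearest to ZCT1 were Cr_TC04889 (leaf 5.64 RPKM, root 242 and flower 24.3; distance 0.41), and Cr_TC03898 (0.42), among 4 within 0.5. With log2(RPKM + 1) centred on each transcript's own mean, ZCT1 and ZCT2 were 0.94 apart. WRKY1 was 4.73 from ZCT1 and 3.85 from ZCT2. Centring takes out the mean level, but the pseudocount still draws low values together, so these distances do not measure shape alone. A profile over 3 libraries is short. By the centred distance, 177 transcripts of at least 10 RPKM somewhere lay within 1 of ZCT1 and 621 within 1 of ZCT2.

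Fewer cells of a type and less RNA per cell cannot be told apart in RNA of whole organs. Since uniquely mapped reads were used, reads that a regulator shares with a near-identical transcript of the assembly are missing from its value, and their number is not known. ZCT3, the other described member of the zinc finger family, was not analysed here.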

How the data were processed

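Reads of 1 library each from leaf, root and flower were quality filtered with NGS QC Toolkit, freed of duplicates and mapped to the assembly with CLC Genomics Workbench by the authors (at most 2 mismatches, uniquely mapped reads). The submitters' processing notes name DESeq. The deposited values were taken as RPKM computed by the authors: the header calls them base means, but they have a smallest step of 0.01 and sums far below what counts scaled by size factors would give. No count test can be run on them, and with 1 library per tissue none was run.

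Log2 ratios used a pseudocount of 1. Transcripts were counted by size, at least 2-fold apart with the larger value at least 10 RPKM, and the code was tested on simulated data. Alternatives were pseudocounts of 0.1 and 10, no minimum or 50 RPKM, 4-fold, and rescaling of the libraries by their totals, upper quartiles or median ratios. Named were the members, TDC, STR1, STR2, actin (the RT-PCR control), the enzymes counted, and the 2 transcripts nearest to each member. T16H and T19H stood as tissue markers. Members and lists were chosen with earlier results of these data known, and names rest on the study's pairing with identifiers, as 0 identifiers matched the RefSeq gene table. ORCA2, ORCA3 and MYC2 were not analysed here. Python 3.11.15 was used with numpy 2.4.6, pandas 2.3.3 and matplotlib 3.10.9.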

Additional observations from a re-analysis of the deposited data

How the results depend on the processing

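Over 45 alternative values of the 9 log2 ratios of the members (pseudocounts of 0.1 and 10 and 3 scalings each), 44 kept their direction and their side of the 2-fold line. The exception was ZCT2 in leaf against flower, at -0.29 with a pseudocount of 10 in place of -1.54. A pseudocount cannot reverse a direction, and the scalings moved log2 ratios of plain RPKM by no more than 0.35 in size. The tally therefore shows little beyond the choice of scale and does not measure the spread between plants. Counts of all transcripts apart moved by over 1.5 times with the threshold. For leaf against flower 5219 became 3329 with a pseudocount of 10, 10488 with no minimum, 1637 with a minimum of 50 RPKM and 2613 at 4-fold. For root against flower 5162 became 3341, 14995, 1581 and 2723, and for leaf against root 6828 became 4549, 18061, 1978 and 4003, in the same order. Of those apart, 46.9% were higher in root than in flower as deposited, 57.9% with upper quartiles made equal and 57.0% after median ratio scaling, and 54.5% were higher in leaf than in root as deposited, 42.5% and 41.8% under these scalings. A distance centred on each transcript's own mean was chosen after seeing the data. It gave other nearest transcripts for ZCT1 (distance 0.09) and ZCT2 (0.04) and the same first one for WRKY1 (0.16). No paired analysis was possible because each tissue has 1 library.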

Other observations

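Actin (Cr_TC35401), the internal control of the study's RT-PCR, had 70.7 RPKM in root, 55.1 in flower and 1.17 in leaf, so that it was itself 60.4-fold lower in leaf than in root. It had the tissue order of ZCT1 and ZCT2. Of the transcripts compared, 1.52% lay further towards root than actin in leaf against root, and 2.75% further towards flower in leaf against flower. Ratios to actin in leaf carry this low value of actin. ZCT1 stood at 3.45 times the actin level in leaf, 3.24 times in root and 0.456 times in flower, and ZCT2 at 0.171, 0.297 and 0.0452 times. Relative to this transcript ZCT1 was therefore alike in leaf and root, although its RPKM differed 56.7-fold between them, and leaf lay above flower in both zinc finger genes. WRKY1 stood at 23.5 times the actin level in leaf, 0.273 times in root and 0.0381 times in flower. Whether the low leaf value of this one transcript holds for actin as a whole was not tested.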
